A study of Mus musculus with 6 samples.

Results

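The genes of glutathione synthesis and use were chosen by gene symbol as the cytosolic, kappa and microsomal transferases, the peroxidases, the synthesis enzymes, glutathione reductase, the gamma-glutamyl cycle enzymes and the glutaredoxins. They number 50 of the 29734 genes of the table, 46 genes and 4 pseudogenes, and 46 of the 50 passed the filter on low counts. Glutathione is the main soluble thiol of the liver cell. It is built from glutamate, cysteine and glycine by glutamate-cysteine ligase and glutathione synthetase, and it is kept reduced by glutathione reductase. Glutathione peroxidases spend it to reduce hydrogen peroxide and lipid hydroperoxides, glutathione S-transferases couple it to electrophiles, and gamma-glutamyl transferases break it down outside the cell. In the liver the transferases are among the abundant proteins of the hepatocyte cytosol, and many of these genes answer to the oxidant-responsive transcription factor NRF2.

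RNA was measured in livers of male mice in 2 groups of 3 libraries. The Prdx1 C52S mice (libraries 1, 2 and 4) carried an allele of peroxiredoxin 1, a thiol peroxidase, in which the cysteine that reacts with peroxide is replaced by serine. The WT mice (libraries 6, 8 and 9) carried the wild-type gene, and both groups were given a diet that the labels call WD, the usual short form of Western diet in studies of steatohepatitis, for 20 weeks from an age of 8 weeks. The labels give neither the strain nor how the allele was made, and number the libraries without saying more of the animals, so that p-values measure the spread between these libraries. Levels are given as FPKM, a value per transcript length and sequencing depth. Log2 fold changes, positive where Prdx1 C52S is higher, come from edgeR's quasi-likelihood test with TMM scaling and stand beside ± their standard error (SE).

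Library totals were 60326469 to 76164949 estimated counts, at about 4 counts per sequenced fragment. WT 8 stood apart, with the lowest mean correlation with the other libraries (0.937 against 0.958 to 0.966). The 8 bile duct markers summed to 836 FPKM in WT 8, 358 and 230 FPKM in WT 6 and 9 and 63.3 to 132 FPKM in the Prdx1 C52S libraries. The 9 markers of pericentral hepatocytes, the cells around the central vein, summed to 874 FPKM in WT 8, 2725 and 2633 FPKM in WT 6 and 9 and 3493 to 4423 FPKM in Prdx1 C52S. The 7 measured hepatocyte markers, albumin among them, summed to 30065 to 32549 FPKM in Prdx1 C52S and 29025 to 30616 FPKM in WT. Results that rest on WT 8 are therefore given with and without it. Prdx1 itself was at 261, 238 and 242 FPKM in the Prdx1 C52S libraries, beside 236, 232 and 270.0 FPKM in the WT libraries (log2 fold change 0.28, adjusted p in edgeR of 0.347). A substitution of 1 residue need not change the level, so that this does not check the labels.

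Most glutathione genes lay higher in the Prdx1 C52S livers, with Gclc of glutathione synthesis (2.61-fold in mean FPKM) and the transferases Gstt3 (2.05-fold), Gstm1 (1.88-fold) and Gstm4 (1.87-fold) the farthest above WT among members of at least 10 FPKM, pseudogenes aside. The extracellular and endoplasmic reticulum peroxidases Gpx3, Gpx7 and Gpx8 and the gamma-glutamyl transferase Ggt5 lay lower. In bulk tissue fewer cells of a type and less RNA per cell cannot be told apart. Of the 46 tested, 36 had positive and 10 negative log2 fold changes (78.3% positive, beside 47% positive and 53% negative among all 18931 genes tested), with a median of 0.38 beside -0.03 over all genes. With library totals in place of TMM, 26 were positive and 20 negative, with a median of 0.09 beside -0.34. With all 6 libraries no member passed adjusted p 0.05 in edgeR (0 of 46, beside 0% of all genes in either direction), and the smallest adjusted p of a member was 0.0553. At an unadjusted p under 0.05, 18 were higher (39.1%, beside 11.5% of all genes) and 6 lower, namely Gpx2, Gpx3, Gpx7, Gpx8, Ggt5 and Ggt7 (13%, beside 14.8%). DESeq2 called 17 higher (37%, beside 8.02%) and Gpx3, Gpx7, Gpx8 and Ggt5 lower (4 genes, 8.7%, beside 9.88%). The share of lower genes was near that of all genes in both tools.

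Leaving out WT 8, 10 of 47 members rose at adjusted p 0.05 in edgeR (21.3%, beside 2.7% of all genes) and 1 fell (2.13%, beside 1.94%). Those that rose were Gclc, Gclm, Gsr, Glrx5, Gsta3, Gstm4, Gstt1, Gsto1, Gstz1 and Mgst1, and the gene that fell was Gpx3. Leaving out WT 9, edgeR called Gclc, Gsr, Gstm4, Gstt3 and the pseudogene Gstm2-ps1 higher and Gpx3 lower. Each had an edgeR adjusted p of 0.0499, the smallest of any gene in that fit. Of all 19653 genes tested there, 63 were called higher and 69 lower. Leaving out any of the other 4 libraries, edgeR called no member. In FPKM, the groups did not overlap for 15 of the 46, higher in Prdx1 C52S (32.6%, beside 6.09% of all genes), and for 9, lower in Prdx1 C52S (19.6%, beside 36.7%). The shares of all genes here are not matched for level, and most members are more abundant than most genes.

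The level of a gene moved with the direction of its difference. Of 32 genes with a mean of at least 10 FPKM, pseudogenes left out, 30 had positive log2 fold changes (93.8%), all but Oplah and Gpx3. Among all 3331 genes tested at that level, 74.9% were positive. The median log2 fold change of these 32 was 0.55, beside 0.21 for all genes at that level, and 16 of them had an unadjusted p under 0.05 and were higher (50%, beside 32.2%). Under 10 FPKM, 4 of 12 were positive (33.3%, beside 41.1% of 15600 genes), and the median was -0.58 beside -0.10. The scaling shifts all these values: with library totals in place of TMM the median of all genes tested was -0.34 and that of the members 0.09. The TMM factors were 0.883 to 0.920 in the Prdx1 C52S libraries and 1.03 to 1.28 in the WT libraries. With library totals Ggt6, Ggct, Glrx, Glrx2, Glrx3, Gpx4, Gstm3, Gstp2, Gstp3 and the pseudogene Gpx4-ps2 turned negative. The other 36 members tested kept their sign, so that 26 were positive and 20 negative.

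**Figure D1:**
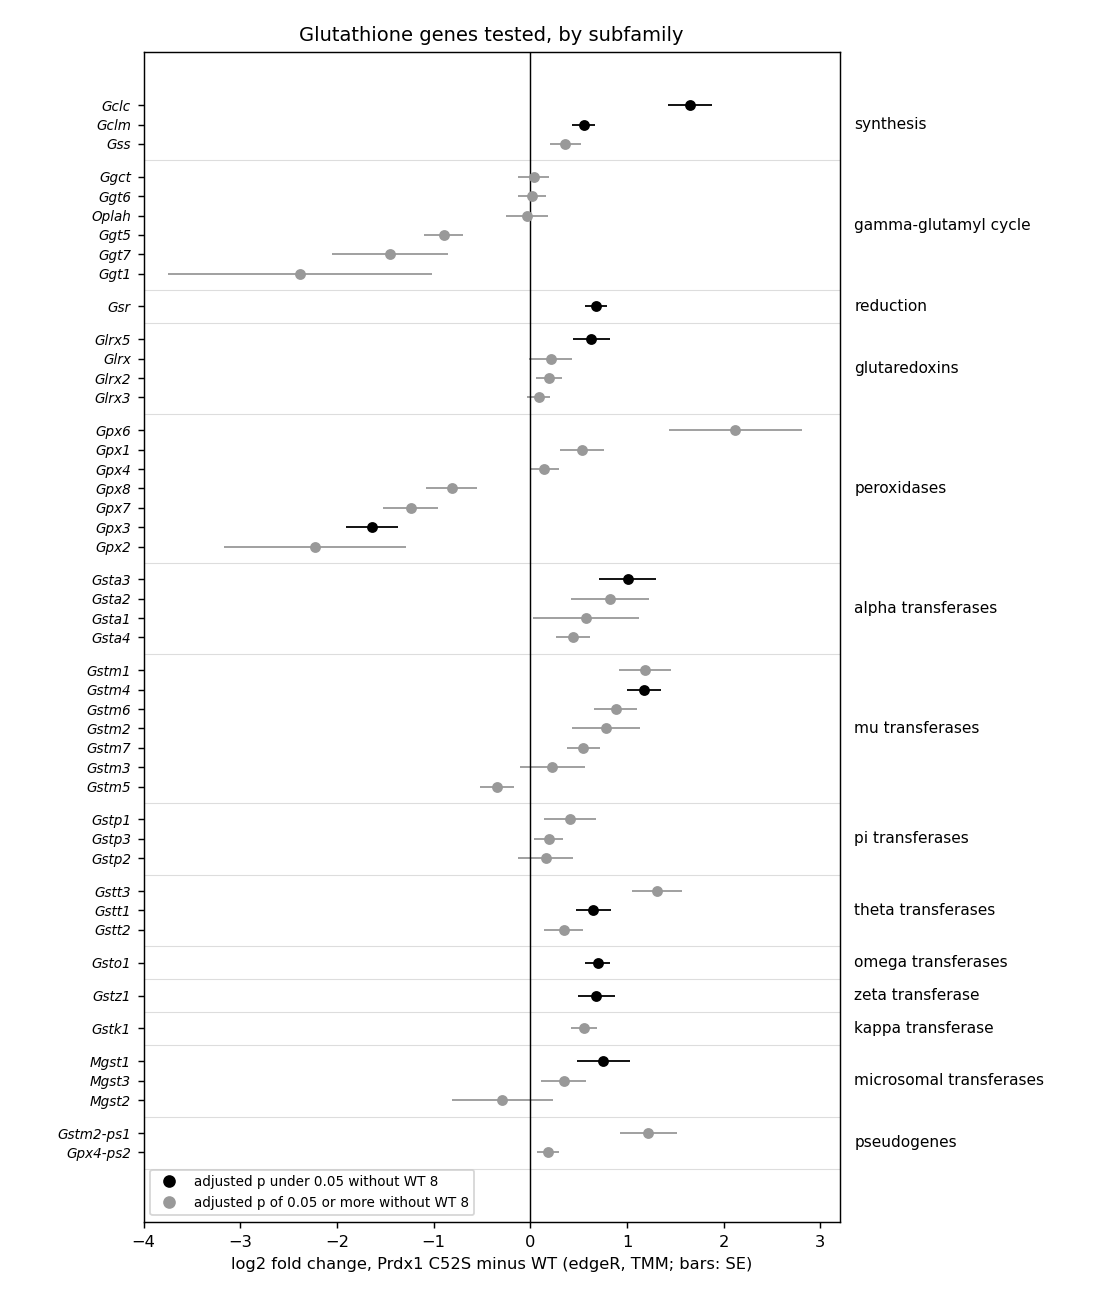
The log2 fold change of each of the 46 glutathione genes tested (x axis, Prdx1 C52S minus WT, edgeR with TMM, bars SE) is shown by subfamily, with black points for the 11 that had an adjusted p under 0.05 without WT 8. Transferase, synthesis and reductase genes lie mostly to the right of 0, with Gclc at 1.65, while Gpx3, Gpx7, Gpx8 and the low genes Gpx2, Ggt1, Ggt5 and Ggt7 lie to the left.

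**Figure D2:**
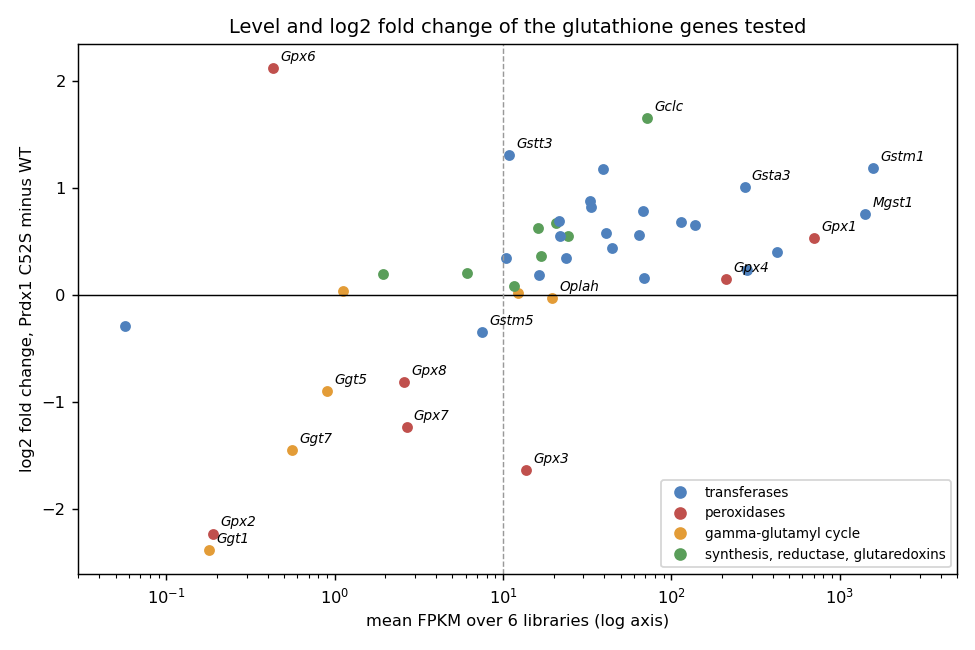
The mean FPKM over the 6 libraries (x axis, log scale) is plotted against the log2 fold change (y axis) for the 44 genes tested without pseudogenes, coloured by role, with a dashed line at 10 FPKM. To the right of the line 30 of 32 genes lie above 0, and to its left 4 of 12.

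Synthesis was led by Gclc, the catalytic subunit of glutamate-cysteine ligase, which sets the rate of glutathione synthesis. Gclc was at 91.7, 101 and 117 FPKM in Prdx1 C52S 1, 2 and 4, beside 40.5, 32.9 and 45 FPKM in WT 6, 8 and 9. Every Prdx1 C52S library lay far above every WT library. The mean was 2.61 times that of WT (103 ± 12.9 against 39.5 ± 6.14 FPKM, SD, n = 3), with a log2 fold change of 1.65 ± 0.23 (adjusted p in edgeR of 0.0553). Without WT 8 it was 1.46 with an adjusted p in edgeR of 0.00566, and with library totals 1.38. The gene spans the plus strand of chromosome 9, at 77754535 to 77794485 (GRCm38), and none of its 50-base stretches of transcript occurs in another gene.

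Gclm, the modifier subunit that raises the efficiency of the enzyme, was at 28.5, 25.5 and 25.8 FPKM in Prdx1 C52S 1, 2 and 4, beside 22.2, 22.9 and 21.5 FPKM in WT 6, 8 and 9. The groups did not overlap, but the ratio of the means was 1.2 (log2 fold change 0.55 ± 0.12, adjusted p in edgeR of 0.0819, and 0.0291 without WT 8). Gss, glutathione synthetase, which adds glycine, was at 19.2, 13.3 and 19.1 FPKM in Prdx1 C52S 1, 2 and 4, beside 14.2, 18.2 and 16.8 FPKM in WT 6, 8 and 9. Its groups overlapped, with Prdx1 C52S 2 the lowest of all 6 libraries (log2 fold change 0.36 ± 0.16, adjusted p in edgeR of 0.202).

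The 2 subunits of the ligase thus differed between the groups by unequal amounts. The ratio of Gclc to Gclm FPKM, which does not depend on the scaling between libraries, was 3.21, 3.95 and 4.55 in Prdx1 C52S libraries 1, 2 and 4, beside 1.83, 1.44 and 2.1 in WT libraries 6, 8 and 9. The means were 3.90 ± 0.669 and 1.79 ± 0.332 (SD, n = 3), and a two-sided exact permutation test gave p = 0.1, the smallest that 3 against 3 allows. Of 10 such ratios of members, 4 reached it, with an adjusted p of 0.25 (exact permutation tests, Benjamini-Hochberg). The ratios were not among the planned tests. Each of those 4 holds Gclc, Gstm1 or Gpx3, which separate the groups by themselves, so that these p-values are no separate support. The ratio of Gclc to Gss separated the groups as well, with 4.77, 7.56 and 6.14 in Prdx1 C52S libraries 1, 2 and 4, beside 2.86, 1.8 and 2.68 in WT libraries 6, 8 and 9.

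Gsr encodes glutathione reductase, which returns the oxidised dimer to glutathione at the cost of NADPH. It was at 22.5, 22 and 25.3 FPKM in Prdx1 C52S 1, 2 and 4, beside 15.4, 19.5 and 18.6 FPKM in WT 6, 8 and 9. The groups did not overlap, and the log2 fold change was 0.68 ± 0.11 (adjusted p in edgeR of 0.062, and 0.0297 without WT 8).

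The mu class of cytosolic transferases held Gstm1, the member with the highest mean FPKM over the 6 libraries. Gstm1, which conjugates epoxides and other electrophiles, was at 1999, 1776 and 2388 FPKM in Prdx1 C52S 1, 2 and 4, beside 881, 971 and 1419 FPKM in WT 6, 8 and 9. The lowest Prdx1 C52S library lay above the highest WT library, and the mean was 1.88 times that of WT (log2 fold change 1.19 ± 0.27, adjusted p in edgeR of 0.0842, and 0.0715 without WT 8). Gstm4 was at 51.2, 48.7 and 53.7 FPKM in Prdx1 C52S 1, 2 and 4, beside 25.6, 24.7 and 32 FPKM in WT 6, 8 and 9. Its libraries lay close together within each group, and its log2 fold change was 1.17 ± 0.17 (adjusted p in edgeR of 0.0559, and 0.0106 without WT 8). Gstm6 was at 33.5, 47.4 and 38.4 FPKM in Prdx1 C52S 1, 2 and 4, beside 25.3, 22.2 and 30.7 FPKM in WT 6, 8 and 9, again without overlap (log2 fold change 0.88, adjusted p in edgeR of 0.0934).

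The other mu genes overlapped or went the other way. Gstm2 was at 72.9, 72.8 and 95.9 FPKM in the Prdx1 C52S libraries, beside 41.6, 40.5 and 85.2 FPKM in the WT libraries, where WT 9 lay above 2 of the Prdx1 C52S libraries (log2 fold change 0.79, adjusted p in edgeR of 0.209). Gstm7 was at 20.7, 27.7 and 22.7 FPKM in the Prdx1 C52S libraries, beside 19.2, 18.6 and 21.2 FPKM in the WT libraries (0.55, edgeR adjusted p of 0.115). Gstm3 was at 312, 160.2 and 346 FPKM in the Prdx1 C52S libraries, beside 176, 340.3 and 342 FPKM in the WT libraries, with Prdx1 C52S 2 and WT 6 far below the other 4 libraries (log2 fold change 0.23, and -0.08 with library totals). Gstm5, a mu transferase best known from brain and testis, was at 6.47, 5.61 and 5.39 FPKM in the Prdx1 C52S libraries, beside 7.69, 12.9 and 7.18 FPKM in the WT libraries. It was the only mu gene with a negative value under TMM scaling (log2 fold change -0.35, adjusted p in edgeR of 0.247), and its highest value was in WT 8. All 7 mu genes lie within 149.1 kb of chromosome 3, from 107895821 to 108044894, in the order Gstm5, Gstm7, Gstm6, Gstm3, Gstm2, Gstm1 and Gstm4. The ratio of Gstm1 to Gstm3 FPKM was 6.4, 11.1 and 6.91 in Prdx1 C52S libraries 1, 2 and 4, beside 4.99, 2.85 and 4.15 in WT libraries 6, 8 and 9, with no overlap (two-sided exact permutation p = 0.1, adjusted p = 0.25 over the 10 ratios).

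Among the alpha transferases, Gsta3, an abundant liver enzyme that conjugates the epoxide of aflatoxin in mice, stood apart from its relatives. It was at 345, 348 and 331 FPKM in Prdx1 C52S 1, 2 and 4, beside 239, 138 and 229.9 FPKM in WT 6, 8 and 9. The Prdx1 C52S libraries lay within 17 FPKM of each other, and the WT mean was 202 ± 56.1 FPKM, with WT 8 the lowest. The log2 fold change was 1.01 ± 0.29 (adjusted p in edgeR of 0.109), and 0.73 without WT 8 (adjusted p in edgeR of 0.0106).

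Gsta1, Gsta2 and Gsta4 followed another order of libraries. Gsta1 was at 55.8, 22.3 and 55.7 FPKM in Prdx1 C52S 1, 2 and 4, beside 12.2, 51 and 48.2 FPKM in WT 6, 8 and 9, and Gsta2 was at 41.7, 28.6 and 45.8 FPKM in Prdx1 C52S 1, 2 and 4, beside 11, 40.7 and 30.9 FPKM in WT 6, 8 and 9. WT 6 and Prdx1 C52S 2 held the lowest values of both genes, and in Gsta1 the other 4 libraries lay together whatever the genotype. Gsta4, whose enzyme prefers the lipid aldehyde 4-hydroxynonenal, was at 51.1, 40.9 and 47.5 FPKM in Prdx1 C52S 1, 2 and 4, beside 29.5, 50.03 and 47 FPKM in WT 6, 8 and 9, with the same pair of libraries lowest. The log2 fold changes of Gsta1, Gsta2 and Gsta4 were 0.58 ± 0.55, 0.82 ± 0.40 and 0.44 ± 0.18, with edgeR adjusted p-values of 0.541, 0.246 and 0.173. The same 2 libraries were also the lowest in Gstm3, Mgst3, Gss, Gpx4 and Gpx4-ps2, but not in Gsta3, which lies on chromosome 1 and apart from the alpha cluster of chromosome 9. Gsta1 and Gsta2 share much of their sequence. Of the 50-base stretches of Gsta1 transcripts, 90.5% occur in another gene, with 46.6% in Gsta2 and 75.7% in Gm3776, so that the level of each is uncertain.

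Microsomal transferase 1, Mgst1, a trimeric enzyme of the endoplasmic reticulum and outer mitochondrial membranes that also reduces lipid hydroperoxides, was at 1639, 1704 and 1651 FPKM in Prdx1 C52S 1, 2 and 4, beside 1306, 850.4 and 1376 FPKM in WT 6, 8 and 9. The groups did not overlap, and WT 8 lay far below the other WT libraries (log2 fold change 0.76 ± 0.28, adjusted p in edgeR of 0.148). Without WT 8 the log2 fold change was 0.50 with an adjusted p in edgeR of 0.0254. Mgst3 overlapped between the groups, at 29.9, 19.4 and 23.2 FPKM in the Prdx1 C52S libraries, beside 17.6, 22.9 and 28.9 FPKM in the WT libraries, and Mgst2, which can make leukotriene C4, stayed under 0.1 FPKM in every library. Gstm1 and Mgst1 together made up 65.4% to 67.7% of the summed FPKM of the 25 transferases in Prdx1 C52S and 54.2% to 62.9% in WT. The summed transferases took 1.26% to 1.52% of a library's FPKM in Prdx1 C52S and 0.913% to 1.15% in WT.

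Of the theta, zeta, kappa and omega classes, 6 genes were tested. In all but Gstt2 the groups did not overlap in FPKM, with Prdx1 C52S higher, beside 6.09% of all genes. Gstt1, which acts on small halogenated molecules, was at 153, 167 and 148 FPKM in Prdx1 C52S 1, 2 and 4, beside 119, 108 and 133 FPKM in WT 6, 8 and 9 (log2 fold change 0.65 ± 0.18, adjusted p in edgeR of 0.101, and 0.0406 without WT 8). Gstt3, its neighbour on chromosome 10, was at 13.8, 18.3 and 11.7 FPKM in Prdx1 C52S 1, 2 and 4, beside 6.11, 6.15 and 9.1 FPKM in WT 6, 8 and 9. This was 2.05 times WT in the mean without overlap (log2 fold change 1.31 ± 0.26, adjusted p in edgeR of 0.0767), and adjusted p was 0.0784 without WT 8. Gstt3 shares 12.2% of its 50-base stretches with the overlapping gene model Gm20441. Gstt2 overlapped between the groups, at 12.4, 11.8 and 7.82 FPKM in the Prdx1 C52S libraries, beside 9.43, 9.78 and 11.3 FPKM in the WT libraries.

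Gstz1, the maleylacetoacetate isomerase of tyrosine breakdown, was at 126, 138 and 124 FPKM in Prdx1 C52S 1, 2 and 4, beside 96.6, 88 and 108 FPKM in WT 6, 8 and 9, and Gsto1, which reduces dehydroascorbate, was at 24.8, 24.4 and 24.9 FPKM in Prdx1 C52S 1, 2 and 4, beside 18, 17.7 and 19.8 FPKM in WT 6, 8 and 9. Neither gene's groups overlapped. Their log2 fold changes were 0.68 and 0.69, with edgeR adjusted p-values of 0.103 and 0.0723, and 0.0338 and 0.0208 without WT 8. Gstk1, the mitochondrial and peroxisomal transferase, was at 67.2, 73.3 and 69.4 FPKM in Prdx1 C52S 1, 2 and 4, beside 48.2, 62.6 and 63.8 FPKM in WT 6, 8 and 9 (log2 fold change 0.56, adjusted p in edgeR of 0.088). The Gstz1 span overlaps Pomt2 and Gm6566 on the other strand.

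In the pi class all groups overlapped. Gstp1, the enzyme that also binds the stress kinase JNK, was at 388, 345 and 585 FPKM in Prdx1 C52S 1, 2 and 4, beside 494, 387 and 327 FPKM in WT 6, 8 and 9, so that Prdx1 C52S 4 was the highest and WT 9 the lowest library with the rest between. Gstp2 was at 64.2, 42 and 89.4 FPKM in Prdx1 C52S 1, 2 and 4, beside 83.3, 77.3 and 53.9 FPKM in WT 6, 8 and 9, and Gstp3 at 14.9, 17.3 and 14.9 FPKM in the Prdx1 C52S libraries, beside 13.2, 19 and 18.6 FPKM in the WT libraries. The log2 fold changes were 0.41 ± 0.27, 0.16 ± 0.28 and 0.19 ± 0.15, with edgeR adjusted p-values of 0.372, 0.757 and 0.467. Of the 50-base stretches of Gstp2, 49.1% occur in Gstp1 as well.

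**Figure D3:**
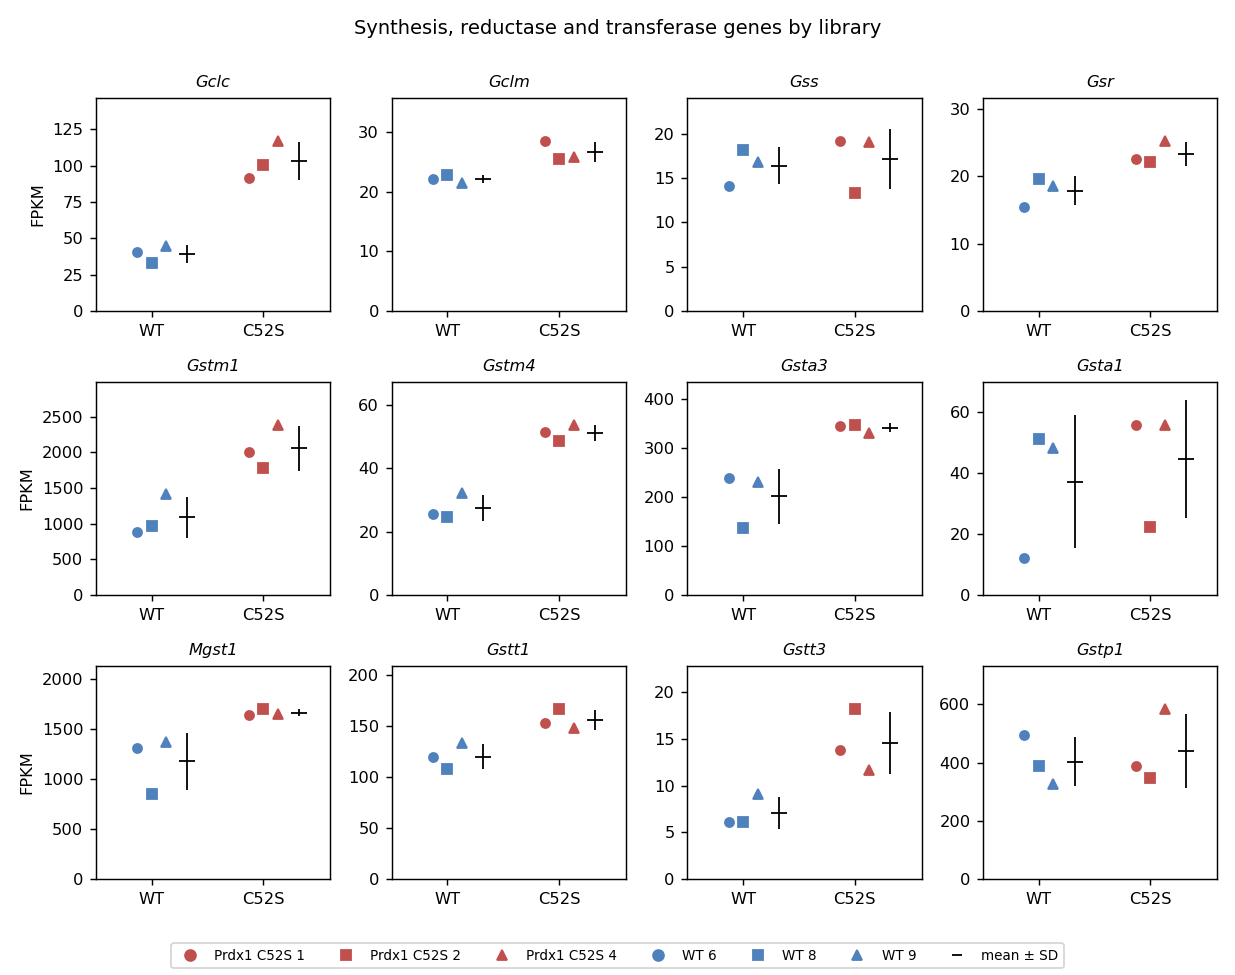
FPKM (y axes, each from 0) of 12 synthesis, reductase and transferase genes is shown for each library, with the group mean ± SD of 3 libraries beside the points. Gclc, Gclm, Gsr, Gstm1, Gstm4, Gsta3, Mgst1, Gstt1 and Gstt3 separate the groups, while in Gss, Gsta1 and Gstp1 the groups overlap. In Gsta1 the lowest library of each group (WT 6 and Prdx1 C52S 2) lies far below the others.

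Markers of pericentral hepatocytes moved with the genes that lay higher. All 9 had positive log2 fold changes, beside 47% of all genes tested and 74.9% of those with a mean of at least 10 FPKM. They were positive with library totals too. Their median was 1.01 under TMM and 0.68 without WT 8, and none was at 0. Glul, glutamine synthetase of the cells next to the central vein, was at 347, 341 and 330.1 FPKM in the Prdx1 C52S libraries, beside 253, 33.3 and 262 FPKM in the WT libraries. Of the 10 members that rose without WT 8, 8 had their lowest FPKM in WT 8, and Gclm and Gsr did not. These 10 were picked as higher than WT 6 and 9, so that a WT library was likely to be their lowest. The share of all genes lowest in WT 8 was not computed, and the count is no link to pericentral cells. The 5 erythroid markers tested were also all positive, with library totals too, with a median of 2.07 under TMM. The 6 erythroid markers listed summed to 252 to 1085 FPKM in Prdx1 C52S and 129 to 278 FPKM in WT, so that the groups overlapped. Of the 8 markers of periportal hepatocytes, the cells near the portal vein, 5 were positive under TMM (62.5%, median 0.13) and 2 with library totals. Of the 8 endothelial markers, 4 were positive under TMM (50%, median 0.009) and 3 with library totals. Of the 7 measured markers of hepatocytes in general, 5 were positive under TMM (71.4%, median 0.28) and 3 with library totals. The part of hepatocytes in general or of pericentral, periportal, endothelial or erythroid cells in these values was not tested.

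Upstream sequences of 3 members are shown. Gclm and Gsta3 rose without WT 8 and carry the core letters of the antioxidant response element that NRF2 binds, TGACNNNGC, on either strand. Gstm1, the member with the highest mean level, has no such match in the windows of either of its RefSeq starts. Each line gives the 250 bases before a RefSeq start (GRCm38.p6), 5′ to 3′ on the strand of the gene, with the match in capitals. They are chr3:122245307-122245556 on the plus strand for Gclm, chr1:21240335-21240584 on the plus strand for Gsta3 and chr3:108017974-108018223 on the minus strand for the upstream of the 2 starts of Gstm1.
Gclm: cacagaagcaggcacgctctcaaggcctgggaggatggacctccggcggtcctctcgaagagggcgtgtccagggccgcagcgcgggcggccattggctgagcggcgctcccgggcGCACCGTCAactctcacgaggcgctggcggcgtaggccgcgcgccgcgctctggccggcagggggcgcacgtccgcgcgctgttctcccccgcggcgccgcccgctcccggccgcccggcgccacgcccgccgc
Gsta3: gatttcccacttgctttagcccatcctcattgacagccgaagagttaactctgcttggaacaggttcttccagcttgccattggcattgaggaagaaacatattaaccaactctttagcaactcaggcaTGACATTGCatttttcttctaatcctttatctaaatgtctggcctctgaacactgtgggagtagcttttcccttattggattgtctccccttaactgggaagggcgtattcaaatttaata
Gstm1: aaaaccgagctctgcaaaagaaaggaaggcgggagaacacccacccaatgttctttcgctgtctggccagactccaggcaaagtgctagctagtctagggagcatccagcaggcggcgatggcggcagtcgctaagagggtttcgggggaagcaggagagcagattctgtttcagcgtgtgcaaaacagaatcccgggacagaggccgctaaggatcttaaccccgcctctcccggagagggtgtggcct
The matches begin 134 bases before the start in Gclm, on the other strand, and 121 bases before it in Gsta3. Of the 40 members with a promoter in the table, 7 (17.5%) hold TGACNNNGC in a window from 250 bases before to 50 after a start, beside 14% of 27025 genes. Besides Gclm and Gsta3 these were Mgst1, Ggct, Ggt1, Gstm5 and Gstm7. Gclc, Gsr, Gsta4, Gstt2, Ggt5, Oplah and the pseudogenes had no promoter there and were not searched. Glrx5, Gstm4, Gstt1, Gsto1 and Gstz1, which also rose without WT 8, have no match in their windows. The related AP-1 letters TGANTCA, which can overlap the first motif, stood in 5 members (12.5%, beside 9%), Glrx, Gstm5, Gstp1, Gstp2 and Mgst2. Both shares lie near those of all genes, and a match describes letters and not binding.

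Of the 7 peroxidases, 3 had positive and 4 negative log2 fold changes. Gpx1, the abundant selenoenzyme that clears hydrogen peroxide in the cytosol and mitochondria, was at 749.7, 725 and 840.1 FPKM in Prdx1 C52S 1, 2 and 4, beside 665, 525 and 733 FPKM in WT 6, 8 and 9. The groups overlapped slightly in FPKM (log2 fold change 0.53 ± 0.23, adjusted p in edgeR of 0.193). Gpx4, the selenoenzyme that reduces phospholipid hydroperoxides within membranes and restrains ferroptosis, was at 219, 169.6 and 208 FPKM in Prdx1 C52S 1, 2 and 4, beside 189, 253 and 221 FPKM in WT 6, 8 and 9 (log2 fold change 0.14 ± 0.15, adjusted p in edgeR of 0.57, and -0.16 with library totals). Gpx1 and Gpx4 made up 94.9% to 99.2% of the summed peroxidase FPKM in every library.

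Gpx3, the secreted peroxidase of plasma, was at 7.39, 3.89 and 5.52 FPKM in Prdx1 C52S 1, 2 and 4, beside 20.6, 30.4 and 14.4 FPKM in WT 6, 8 and 9. Every Prdx1 C52S library lay below every WT library, and the WT mean was 3.89 times that of Prdx1 C52S (5.6 ± 1.75 against 21.8 ± 8.07 FPKM). The log2 fold change was -1.64 ± 0.27 (adjusted p in edgeR of 0.0611), and -1.45 without WT 8 (adjusted p in edgeR of 0.0494). Gpx7 and Gpx8, thiol peroxidases of the endoplasmic reticulum that lack selenocysteine and support disulfide formation, also separated the groups. Such a separation in FPKM, lower in Prdx1 C52S, was common, at 36.7% of all genes tested. Gpx7 was at 1.26, 1.05 and 1.76 FPKM in Prdx1 C52S 1, 2 and 4, beside 3.72, 5.43 and 2.81 FPKM in WT 6, 8 and 9 (log2 fold change -1.24 ± 0.28, adjusted p in edgeR of 0.0842). Gpx8 was at 1.37, 1.47 and 2 FPKM in Prdx1 C52S 1, 2 and 4, beside 3.03, 4.88 and 2.78 FPKM in WT 6, 8 and 9 (log2 fold change -0.81 ± 0.27, adjusted p in edgeR of 0.123), and neither Gpx7 (0.0738) nor Gpx8 (0.204) passed without WT 8.

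Markers of other cell types moved with these 3 genes. The 9 stellate cell and fibroblast markers summed to 68.4 to 92.1 FPKM in Prdx1 C52S and 105 to 171 FPKM in WT, with 6 of 9 negative. The 8 bile duct markers were all negative and so were the 8 macrophage markers, with library totals too. The 6 neutrophil markers and the 8 markers of T, NK and B cells were also all negative, with medians of -0.66 and -1.20. The 6 markers of Kupffer cells, the resident macrophages, went otherwise, with 5 of 6 positive under TMM (median 0.34, and -0.18 without WT 8) and 3 of 6 with library totals. They summed to 209 to 238 FPKM in Prdx1 C52S and 86.6 to 325 FPKM in WT, lowest in WT 8. The macrophage markers summed to 182 to 221 against 423 to 481 FPKM. None of these markers was at 0 in all libraries. The part of these cells in the Gpx3, Gpx7 and Gpx8 values was not tested. The ratio of Gpx1 to Gpx3 FPKM was 102, 186 and 152 in Prdx1 C52S libraries 1, 2 and 4, beside 32.3, 17.3 and 50.8 in WT libraries 6, 8 and 9 (two-sided exact permutation p = 0.1, adjusted p = 0.25 over the 10 ratios).

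The last 2 peroxidases were near the lower end of detection. Gpx2, the peroxidase of gut and other epithelia, lay at 0.0487, 0.0478 and 0.0413 FPKM in the Prdx1 C52S libraries, beside 0.0694, 0.859 and 0.0743 FPKM in the WT libraries, so that the negative log2 fold change of -2.23 came from WT 8 and was -0.33 without it. Gpx6, known from olfactory tissue, lay at 0.185, 1.09 and 0.743 FPKM in the Prdx1 C52S libraries, beside 0.179, 0.13 and 0.244 FPKM in the WT libraries. Its 2 high libraries, Prdx1 C52S 2 and 4, were above all others, while Prdx1 C52S 1 was at the WT level (log2 fold change 2.12 ± 0.69, adjusted p in edgeR of 0.123).

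**Figure D4:**
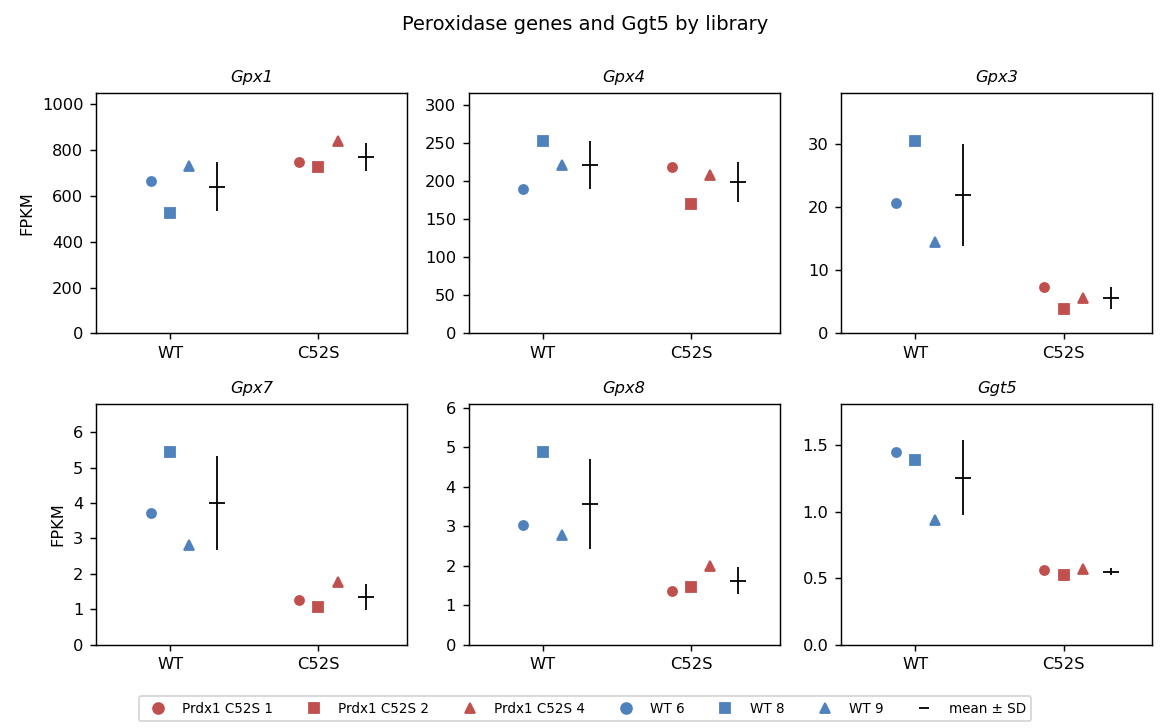
FPKM (y axes, each from 0) of 5 peroxidase genes and Ggt5 is shown for each library, with the group mean ± SD of 3 libraries beside the points. Gpx1 and Gpx4 overlap between the groups, and in Gpx3, Gpx7, Gpx8 and Ggt5 every Prdx1 C52S library lies below every WT library. The same holds for 36.7% of all genes tested.

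The gamma-glutamyl cycle returns the amino acids of glutathione to the cell. Ggt5, a surface enzyme that converts leukotriene C4 to D4, was at 0.559, 0.521 and 0.566 FPKM in Prdx1 C52S 1, 2 and 4, beside 1.45, 1.39 and 0.933 FPKM in WT 6, 8 and 9. The Prdx1 C52S libraries lay close together and below all WT libraries (log2 fold change -0.90 ± 0.20, adjusted p in edgeR of 0.0842, and 0.0561 without WT 8). In 36.7% of all genes tested the Prdx1 C52S libraries likewise lay below all WT libraries. Ggt1, the main transferase of epithelia and bile ducts, was at 0.03, 0.0495 and 0.0475 FPKM in the Prdx1 C52S libraries, beside 0.188, 0.757 and 0 FPKM in the WT libraries. It was highest in WT 8 and listed at 0 in WT 9, and its log2 fold change of -2.38 ± 1.37 was -0.86 without WT 8. Ggt7, a relative of unclear enzyme activity, was at 0.375, 0.15 and 0.194 FPKM in the Prdx1 C52S libraries, beside 0.398, 1.78 and 0.437 FPKM in the WT libraries, also highest in WT 8, with a log2 fold change of -1.45 that was -0.59 without that library.

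Ggt6, Oplah and Ggct overlapped between the groups. Ggt6 was at 11.5, 12.1 and 9.62 FPKM in the Prdx1 C52S libraries, beside 10.3, 17 and 13.5 FPKM in the WT libraries (log2 fold change 0.01, and -0.30 with library totals). Oplah, 5-oxoprolinase, which opens the cyclic product to glutamate, was at 19.1, 17.3 and 16.5 FPKM in the Prdx1 C52S libraries, beside 25.2, 17.2 and 22.5 FPKM in the WT libraries (log2 fold change -0.03, and -0.25 without WT 8). Ggct, the cyclotransferase that releases that product, was at 1.11, 0.977 and 0.966 FPKM in the Prdx1 C52S libraries, beside 0.915, 1.56 and 1.22 FPKM in the WT libraries (log2 fold change 0.03). Adjusted p-values of these 3 were 0.913 to 0.961 in edgeR.

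Of the glutaredoxins, which use glutathione to reduce mixed disulfides or to carry iron-sulfur clusters, Glrx5 of the mitochondrial cluster pathway was at 19.3, 17.3 and 17.6 FPKM in Prdx1 C52S 1, 2 and 4, beside 14.6, 11.6 and 15.9 FPKM in WT 6, 8 and 9. Its groups did not overlap (log2 fold change 0.63 ± 0.19, adjusted p in edgeR of 0.114, and 0.0408 without WT 8). Glrx, the cytosolic dithiol enzyme, was at 6.29, 5.82 and 5.76 FPKM in the Prdx1 C52S libraries, beside 7.16, 4.74 and 6.64 FPKM in the WT libraries, and mitochondrial Glrx2 was at 1.74, 1.82 and 2.06 FPKM in the Prdx1 C52S libraries, beside 1.93, 1.97 and 2.07 FPKM in the WT libraries. Glrx3, which hands iron-sulfur clusters on in the cytosol, was at 10.9, 11.3 and 10.2 FPKM in the Prdx1 C52S libraries, beside 11.7, 12.4 and 13.1 FPKM in the WT libraries. For Glrx3 the FPKM of every Prdx1 C52S library lay below WT, while the log2 fold change under TMM scaling was 0.08 and -0.21 with library totals.

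**Figure D5:**
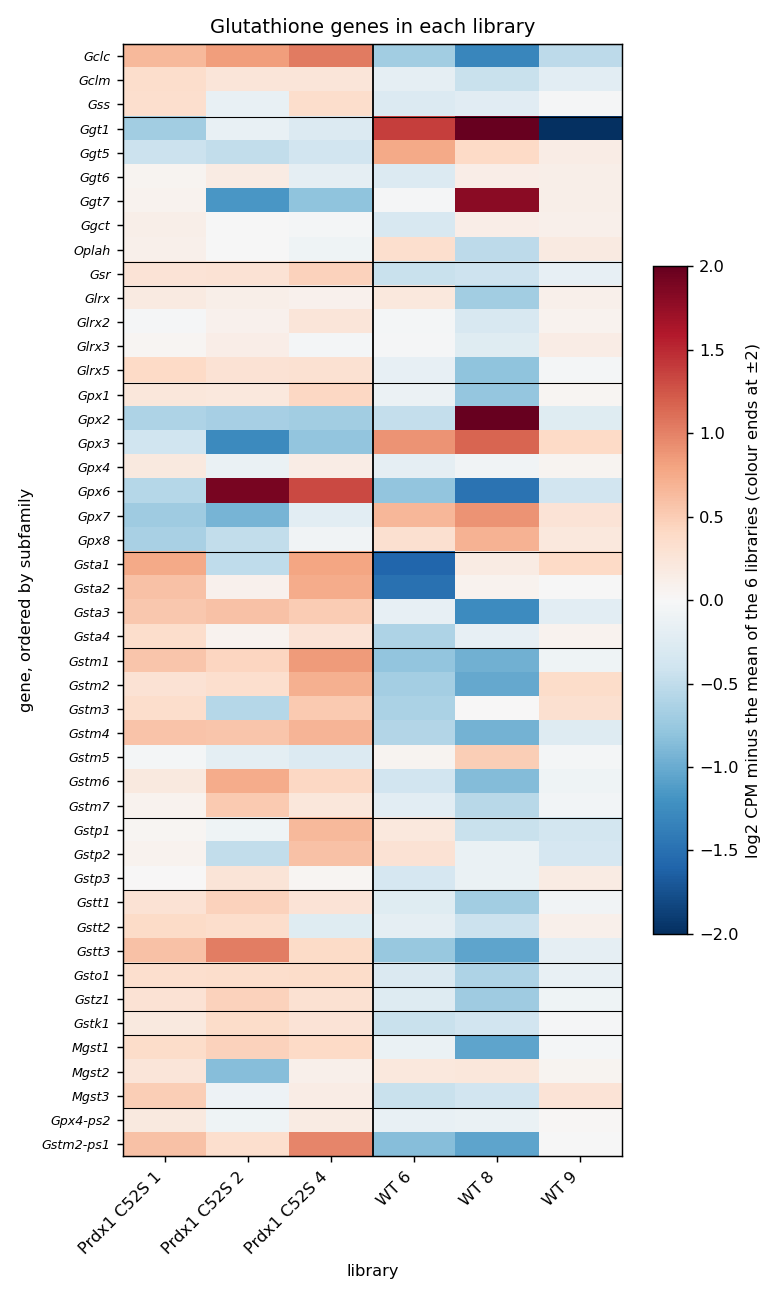
Each cell is the log2 CPM (counts scaled to library size with TMM) of a gene (rows, by subfamily) in a library (columns) minus that gene's mean over the 6 libraries, with red above and blue below the mean and the colour ending at ±2. Gclc, Gsr, Gstm4 and Gsto1 are red in all 3 Prdx1 C52S libraries and blue in all 3 WT libraries, WT 6 is dark blue in Gsta1 and Gsta2, WT 8 is dark red in Ggt1, Ggt7 and Gpx2, and WT 9 is dark blue in Ggt1.

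The pseudogenes bear on how far close copies can be told apart. Gstm2-ps1, a processed pseudogene on chromosome 5, was at 89.1, 72.6 and 113 FPKM in Prdx1 C52S 1, 2 and 4, beside 36.7, 39.5 and 65.5 FPKM in WT 6, 8 and 9 and thus followed Gstm1. The ratio of Gstm2-ps1 to Gstm1 FPKM was 0.0407 to 0.0475 over the 6 libraries, and 35.4% of the pseudogene's 50-base stretches occur in Gstm1. Gpx4-ps2, on chromosome 10, was at 109, 87.3 and 105 FPKM in the Prdx1 C52S libraries, beside 96.4, 121 and 108 FPKM in the WT libraries, that is 0.479 to 0.514 of Gpx4 in every library, and 83.9% of its stretches occur in Gpx4. How shared reads were assigned is not given in the sources used here, so that the values of both pseudogenes are uncertain. Nor is it given whether counting used strand, and Gclm, Gss, Ggt5, Oplah, Gpx2, Gsta3, Gstm5 and Gstz1 overlap genes of the other strand. The 4 members that were not tested, Gstt4, Gsto2, Gpx2-ps1 and Gpx4-ps1, had at most 14 estimated counts in any library. Among the 6 transferases with the largest log2 fold changes, Gstm4 shares none of its stretches with another gene, Gsta3 0.3%, Gstm6 6%, Gstt3 12.5%, Gstm1 18.9% and Gsta2 49.8%.

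Genes around the family were read from 4 lists. The shares of all genes set beside them are not matched for level. Of 23 genes of cysteine supply and glutathione handling, 7 were higher and 3 (Dpep1, Abcc1 and Abcc5) lower at an unadjusted p under 0.05 (30.4% and 13%, beside 11.5% and 14.8% of all genes). The median log2 fold change was 0.20, with 14 positive, and -0.088 with library totals, with 10 positive, and none passed edgeR's adjusted p 0.05. Without WT 8, 5 rose (21.7%, beside 2.7% of all genes), Cth and the 4 described next, and none fell (beside 1.94%). The 4 with the smallest p were Chac2, which degrades glutathione in the cytosol (18 ± 1.31 against 13.9 ± 0.595 FPKM, log2 fold change 0.66), the conjugate exporters Abcc3 (54.6 ± 2.88 against 36.8 ± 3.82 FPKM, 0.84) and Abcc2 (97.9 ± 8.31 against 58.2 ± 11.7 FPKM, 1.01), and Cbs, which starts transsulfuration (36.3 ± 5.28 against 26.8 ± 3.98 FPKM, 0.74). Each passed edgeR without WT 8 (adjusted p of 0.0372, 0.0149, 0.0111 and 0.0473).

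Of 16 other glutathione-dependent enzymes, 4 were higher (Ethe1, Glo1, Esd and Adh5) and 3 lower (Clic1, Alox5ap and Hpgds) at an unadjusted p under 0.05 (25% and 18.8%, beside 11.5% and 14.8% of all genes). Under TMM 8 were positive and 8 negative, and with library totals 7 were positive and 9 negative, with a median of -0.30. Without WT 8 the 4 higher genes passed edgeR's adjusted p 0.05 (25%, beside 2.7% of all genes). So did Clic1, which fell (6.25%, beside 1.94%). Ethe1, the mitochondrial persulfide dioxygenase, was at 19.4 ± 2.54 against 12.7 ± 1.54 FPKM (log2 fold change 0.91, adjusted p in edgeR of 0.0557). Glo1, glyoxalase 1, was at 28.4 ± 3.6 against 18.5 ± 2.38 FPKM (0.89) and Esd, which hydrolyses S-formylglutathione, at 74.4 ± 4.58 against 55.1 ± 5.45 FPKM (0.71). Clic1, a chloride channel protein with a transferase fold, was at 10.8 ± 0.519 against 23.3 ± 10.6 FPKM (-0.77).

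All 12 genes of selenoprotein synthesis, on which Gpx1, Gpx3 and Gpx4 depend, had positive log2 fold changes under TMM scaling, with a median of 0.34, but 7 of 12 with library totals. At an unadjusted p under 0.05, 5 were higher (41.7%, beside 11.5% of all genes), Sephs1, Sephs2, Eefsec, Scly and Sepsecs. Sephs2, which makes the selenium donor, was at 249 ± 10.4 against 193 ± 14.8 FPKM (log2 fold change 0.64, adjusted p in edgeR of 0.102, and 0.028 without WT 8). Scly, Eefsec and Sephs1 had log2 fold changes of 0.56, 0.44 and 0.32, and that of Sephs1 was 0.0059 with library totals. Of 12 regulators, 4 were higher at an unadjusted p under 0.05 (33.3%, beside 11.5% of all genes) and none of the 12 lower (0%, beside 14.8%), with 8 positive values under TMM and 5 with library totals. Nfe2l2, which encodes NRF2, was at 38.1, 31.6 and 34.7 FPKM in the Prdx1 C52S libraries, beside 27.4, 37.5 and 31.3 FPKM in the WT libraries (log2 fold change 0.42, adjusted p in edgeR of 0.102), and Keap1, its inhibitor, at 11.6, 11 and 11.7 FPKM in the Prdx1 C52S libraries, beside 10.01, 10.9 and 11 FPKM in the WT libraries (0.39). The aryl hydrocarbon receptor gene Ahr was at 8.09, 7.99 and 7.63 FPKM in the Prdx1 C52S libraries, beside 6.42, 6.06 and 6.08 FPKM in the WT libraries (0.64, edgeR adjusted p of 0.0719, and 0.0231 without WT 8). The xenobiotic receptor CAR, Nr1i3, was at 64.1, 60.3 and 53.9 FPKM in the Prdx1 C52S libraries, beside 31.1, 13.8 and 49.8 FPKM in the WT libraries, with WT 8 the lowest (1.14, and 0.75 without it).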

How the data were processed

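RNA-seq of 6 livers was used, 3 Prdx1 C52S and 3 WT. The deposited table holds FPKM and estimated counts per gene and library, made by the authors with cutadapt 1.9, HISAT2 2.0.4, UMI-tools and StringTie 1.3.4d, per the submitters' processing notes. Those notes name the build mm9, but the coordinates of 25866 of the 29734 genes are identical to GRCm38 (GENCODE M21), which is the build given here. The estimated counts of lowly covered genes cluster at 4 (6204 values, beside 3538 at 3 and 1965 at 5), so that 1 fragment is worth about 4 counts and the depth in fragments is about the total divided by 4. All sample columns were matched to a library by name.

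The estimated counts were rounded and tested over the whole table with edgeR 4.0.16 (filterByExpr, TMM, robust quasi-likelihood F-test, Benjamini-Hochberg over 18931 genes). The test was checked on simulated data. At the spread that edgeR estimated over all genes (dispersion 0.0961), it recovered 18% of 2-fold and 95% of 4-fold changes, with 8 false calls. At a dispersion of 0.024 it recovered 96% and 100%, with 7 false calls. An absence of calls therefore does not exclude changes of about 2-fold. Each simulation gave every gene the same dispersion, so that these rates are not the power for any single member. Alternatives were other scalings, no filter on low counts, counts divided by 4, DESeq2 1.42.0, limma 3.58.1 (voom with sample weights, and log2 of FPKM plus 1 or 0.1), and leaving out each library.

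The members and lists were chosen with earlier results of these data known. Every member with a mean of at least 1 FPKM, and every synthesis, reductase and peroxidase gene, is given by library, and from each pathway list the 4 genes with the smallest p. Ggt1, Ggt5, Ggt7 and Mgst2, and the genes that complete a short count, were named after their values were seen. Promoters are from RefSeq (GRCm38.p6), with 40 of 50 members matched. Shared sequence is the share of 50-base stretches of a gene's GENCODE transcripts found in those of another gene.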

Additional observations from a re-analysis of the deposited data

How the results depend on the processing

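With edgeR, no gene passed adjusted p 0.05 over all 6 libraries, with TMM, RLE or upper quartile scaling (unadjusted p under 0.05: 2176 higher and 2807 lower), and no glutathione gene did. The count of all genes and of members was 160 and 2 with library totals, 196 and 3 with no filter, 83 and 2 with counts divided by 4, 3122 and 21 in DESeq2, 1937 and 19 in limma voom, 90 and 2 in limma on FPKM plus 1, 271 and 3 on FPKM plus 0.1, and 1 and 0 on FPKM plus 1 without a filter. Leaving out 1 library gave 0 to 897 genes and 0 to 11 members, with 897 and 11 without WT 8, 132 and 6 without WT 9 and 0 and 0 without any of the other 4. Gclc and Gstm4 were called in every one of these settings that called at least 2 members. The median log2 fold change of the members was 0.38, and 0.29 to 0.54 when 1 library was left out. It was 0.090 with library totals, 0.087 on FPKM plus 1, 0.088 on FPKM plus 0.1 and 0.060 on FPKM plus 1 without a filter. The median of all genes shifted along, from -0.03 to -0.34, -0.15 and -0.28 with library totals, FPKM plus 1 and FPKM plus 0.1.

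With library totals, FPKM plus 1 (the same without the filter) and FPKM plus 0.1, 10 positive values turned negative: Ggt6 to -0.30, -0.25 and -0.27, Ggct to -0.28, -0.14 and -0.23, Glrx to -0.060, -0.029 and -0.031, Glrx2 to -0.097, -0.060 and -0.087, Glrx3 to -0.21, -0.18 and -0.20, Gpx4 to -0.16, -0.15 and -0.15, Gstm3 to -0.076, -0.082 and -0.083, Gstp2 to -0.14, -0.17 and -0.18, Gstp3 to -0.12, -0.089 and -0.093, and Gpx4-ps2 to -0.12, -0.11 and -0.11. Ggt6 was -0.0082 with upper quartile scaling. When 1 library was left out, 7 members changed sign in at least 1 case. Their ranges were -0.11 to 0.11 for Ggt6 (negative without Prdx1 C52S 2 or WT 6), -0.10 to 0.12 for Ggct (without Prdx1 C52S 1 or WT 6), -0.14 to 0.39 for Gstp2 (without Prdx1 C52S 4), -0.019 to 0.37 for Glrx and -0.0058 to 0.19 for Glrx3 (both without WT 8). Oplah ranged over -0.25 to 0.14 (positive without Prdx1 C52S 4, WT 6 or WT 9) and Mgst2 over -0.53 to 0.013 (positive without Prdx1 C52S 2). The cause was not tested. The other tested members kept their sign in every setting that tested them. No paired analysis was possible because the groups share no replicate numbers.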
